A study of Arabidopsis thaliana with 50 samples.

Results

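The 10 photoreceptor genes of *Arabidopsis thaliana* described here encode the phytochromes *PHYA* (AT1G09570), *PHYB* (AT2G18790), *PHYC* (AT5G35840), *PHYD* (AT4G16250) and *PHYE* (AT4G18130), the cryptochromes *CRY1* (AT4G08920) and *CRY2* (AT1G04400), the phototropins *PHOT1* (AT3G45780) and *PHOT2* (AT5G58140), and the UV-B receptor *UVR8* (AT5G63860). They were picked by gene ID for the proteins they encode and not by their values. They are 10 of 68527 features counted in every library, of which 37338 were genes and 31189 were transposable elements. The question put to them is whether the receptor transcripts differed between *med12* and Col-0 seedlings before and after a light pulse, and in the other genotypes of the series.

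Phytochromes sense red and far-red light through a bound bilin pigment, and switch between an inactive and an active form that moves into the nucleus. Cryptochromes and phototropins absorb blue light through flavins, the cryptochromes acting on gene expression in the nucleus and the phototropins acting as kinases that steer growth toward light and move chloroplasts. UVR8 is a dimer that falls apart in UV-B. MED12 and MED13 belong to the kinase module of Mediator, the complex that connects transcription factors to RNA polymerase.

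RNA-seq was run on whole seedlings 8 days old, each replicate being 5 seedlings extracted together, in 50 libraries and 14 groups. Long-day plants (16 h light and 8 h dark) were *med12* (the *cct-2* insertion allele), *med13* (*gct-2*) and Col-0, with 4 libraries each. For the light experiment, *med12* and Col-0 had 7 long days and then 24 h of darkness, and were collected either after 15 min of light or straight from the dark, with 3 libraries each. The other long-day groups all carried the *SDC:GFP* transgene, a reporter kept silent by DNA methylation. They were *morc1/med12* (n = 3) with its own *morc1* libraries (n = 3), *morc1/med13* (n = 4) with its own *morc1* libraries (n = 4), *ddc/med13* (n = 4), *ddc* (n = 4) and the *SDC:GFP* wild type (n = 4). Here *morc1* is the *morc1-4* insertion, which affects a chromatin-compacting ATPase. The *ddc* genotype is the *drm1/drm2/cmt3* triple mutant, which lacks the DNA methyltransferases DRM1, DRM2 and CMT3. The *med12* lesion in *morc1* and the *med13* lesion in *ddc* were made by gene editing, and the *med13* lesion in *morc1* came from a cross with *gct-2*, so each of these genotypes rests on 1 allele.

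On TAIR10.1 the phytochrome genes lie at chr1:3095160-3100819 (*PHYA*), chr2:8139756-8144461 (*PHYB*), chr5:14007812-14011848 (*PHYC*), chr4:9195247-9199840 (*PHYD*) and chr4:10042137-10046346 (*PHYE*). The blue-light receptor genes lie at chr4:5723651-5727268 (*CRY1*), chr1:1185512-1188696 (*CRY2*), chr3:16816721-16824210 (*PHOT1*) and chr5:23523825-23533111 (*PHOT2*), and *UVR8* lies at chr5:25554416-25559499. *PHYB*, *PHYA* and *PHOT1* had the largest differences between dark and long-day plants in Col-0, though not in *med12*, where *PHOT1* changed less than *PHOT2*. *PHYA* and *PHOT1* were called in most genotype comparisons. For that reason the 250 bases before their gene starts are printed here from RefSeq on TAIR10.1, each read 5′ to 3′ on the strand of its gene, with matches to the G-box CACGTG in capitals. The G-box is the hexamer bound by HY5 and by the phytochrome-interacting factors.
PHYA chr1:3100820-3101069 (-): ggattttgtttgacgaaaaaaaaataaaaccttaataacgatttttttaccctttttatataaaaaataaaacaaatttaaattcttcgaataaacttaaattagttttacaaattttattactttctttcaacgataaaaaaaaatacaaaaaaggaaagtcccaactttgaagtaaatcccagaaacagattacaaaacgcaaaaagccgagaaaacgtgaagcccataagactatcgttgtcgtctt
PHYB chr2:8139506-8139755 (+): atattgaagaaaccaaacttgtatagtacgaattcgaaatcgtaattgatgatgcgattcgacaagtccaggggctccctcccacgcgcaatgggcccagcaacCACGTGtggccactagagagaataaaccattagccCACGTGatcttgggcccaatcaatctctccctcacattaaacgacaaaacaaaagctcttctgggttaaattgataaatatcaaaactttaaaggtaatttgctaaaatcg
PHOT1 chr3:16816471-16816720 (+): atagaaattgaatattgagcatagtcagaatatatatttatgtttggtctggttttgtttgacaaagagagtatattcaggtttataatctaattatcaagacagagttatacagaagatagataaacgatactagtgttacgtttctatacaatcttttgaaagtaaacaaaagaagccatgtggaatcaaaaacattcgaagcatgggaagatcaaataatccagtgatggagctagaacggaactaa
Both strands of all 10 windows were searched. *PHYB* held 2 G-boxes, whose last bases lie 141 and 106 bases before the gene start, and *PHYD* held 1, at 70 bases. In comparison, 6.49% of 27443 gene windows of this length held a G-box. The evening element AAAATATCT (2.36% of windows), the I-box GATAAG (12.3%) and the CCA1 binding site AAAAATCT (6.69%) had no match in any of the 10 windows. The CACGTG letters do not overlap those of the other motifs, and a match here describes the letters only.

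Each library held 2767761 to 6786822 counts. The members were well counted, with at least 83 counts for every gene in every library, and no 50-base stretch of any member's exons was found elsewhere in the genome. *PHYE* shares its strand with an overlapping gene (AT4G18140) and *PHOT2* overlaps a gene on the other strand (AT5G58150), so *PHYE* counts may be affected by its neighbour. PCR duplicates had been removed from single-end reads, which lowers the counts of a gene most where it is most deeply covered, and the members reached 0.0197 to 0.659 counts per exon base, with the highest value for *PHYA* in dark Col-0. Counts were therefore also corrected for it, and the corrected log2 fold change is given for each called member that the correction moved by 0.1 or more.

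Replicates of the dark and light groups differed by little more than counting noise. Over features with 20 to 100 counts, the ratio of their observed to Poisson variance was 0.89 to 1.09 in the 12 replicate pairs of that experiment, against 1.03 to 3.16 in the 54 pairs of the other groups. In this count range it was above Poisson at a one-sided p under 0.05 in 2 of the 12 pairs and in 53 of the 54. The members lie above this range in the dark and light libraries. Over all features with at least 20 counts in a pair the ratio was 0.585 to 0.793, below Poisson, in that experiment. It was 0.867 to 5.77 in the other groups. The 3 libraries of a dark or light group are kept here as labelled, but p-values within that experiment measure little beyond counting, and the spread behind them may be technical. Overlap between its groups, or the lack of it, rests on the same libraries and has the same limit. Standard errors and 95% intervals within that experiment are narrower than its p-values allow, and some exclude 0 beside an unadjusted p above 0.05. Counts of called genes within it, apart from the tissue and seed storage markers, are therefore set beside a second count. That count used the mean of each dark or light group as 1 sample, with the spread taken from the 12 long-day libraries.

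The transcript of *MED12* had 60.6 to 68.4 CPM (a gene's counts over the TMM-scaled library total, times 10 to the power of 6) in *med12* libraries of all 3 conditions, against 163 to 199 CPM in Col-0. *MED13* was not lower in libraries labelled *med13*, at 129.9, 127, 115 and 122 CPM against 105, 113, 107 and 112 CPM in Col-0, so the transcript level does not check that label. Likewise *MED12* was not lower in *morc1/med12* (log2 fold change 0.17, SE 0.05, adjusted p = 0.048, edgeR) nor *MED13* in *ddc/med13* (log2 fold change 0.37, SE 0.08, adjusted p = 0.0052), and *MED13* in *morc1/med13* was not called (log2 fold change -0.07, SE 0.05, adjusted p = 0.29). Green-tissue markers (*RBCS1A*, *RCA*, *LHCB2.1*, *PSBO1*) summed to 523 to 1250 CPM and root markers (*PYK10*, *CASP1*, *SCR*, *WER*, *COBL9*) to 383 to 671 CPM in every library, while the flower genes *AP3* and *AG* were at 0 in 7 and 13 libraries. The flower gene *PI* was higher in dark *med12* than in dark Col-0 (log2 fold change 1.64, SE 0.17, adjusted p = 2.9e-11). It was also called higher in lit *med12* (log2 fold change 1.22), long-day *med12* (2.44) and *med13* (1.68) against Col-0, in *morc1/med12* against *morc1* (2.42) and in *ddc/med13* against *ddc* (1.04), and its part in the differences below was not tested. Seed storage genes (*CRA1*, *CRU3*, *OLEO1*, *SESA3*) stood apart. All 4 were called higher in *med12* than in Col-0 in each condition. Of all features 20.2% were called higher in the dark, 20.5% in light and 20.2% in long days. For these genes and for *PI*, p-values in the dark and in light measure little beyond counting, as said above. The seed storage genes summed to 166 to 312 CPM in dark *med12* against 0.457 to 2.05 CPM in dark Col-0. In light the sums were 71.1 to 98.0 CPM in *med12* against 2.37 to 4.19 CPM in Col-0. In long days they were 34.1 to 372 CPM in *med12* and 32.4 to 582 CPM in *med13*, against 1.79 to 8.61 CPM in Col-0. Their part in the differences below was not tested. With whole seedlings, fewer cells of a type and less RNA per cell cannot be told apart.

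In long-day Col-0, levels per kilobase of transcript put the phytochromes other than *PHYA* below the other receptors. *CRY2* averaged 64.4 CPM per kb, *PHOT2* 58.6, *PHYA* 58.3, *PHOT1* 57.8 and *UVR8* 57.3, and each of these overlapped the next in its 4 libraries. *CRY1*, the main blue-light receptor of de-etiolation, followed at 52.3 CPM per kb. *PHYC* (25.7) and *PHYB* (25.3), which overlapped each other, *PHYE* (19.0) and *PHYD* (14.7 CPM per kb) were the least abundant. No order is read between neighbours among the first 5. *CRY2* (59.7 to 67.9 CPM per kb) did lie above *PHYA* (56.2 to 59.4) in all libraries.

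In dark Col-0 the order differed and no 2 neighbours overlapped in their 3 libraries. *PHYA*, the light-labile far-red receptor that accumulates in darkness, led with 99.0 CPM per kb, followed by *PHOT1* (86.2), *CRY2* (66.4), *CRY1* (58.9), *UVR8* (56.1), *PHYB* (44.6), *PHOT2* (40.2), *PHYC* (27.6), *PHYE* (19.6) and *PHYD* (12.6). In the *SDC:GFP* wild type, *PHOT1* (104) and *PHOT2* (98.0 CPM per kb) led and overlapped, *PHYA* stood at 44.2 and *PHYB* at 37.4, and *PHYD* was again the lowest. *PHYD* had the lowest level per kilobase in all 3 wild-type groups, whichever transcript length was used. The rank of *PHOT2* depended on that length, and it fell to place 6 in long-day Col-0 when all exons were counted.

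**Figure D1:**
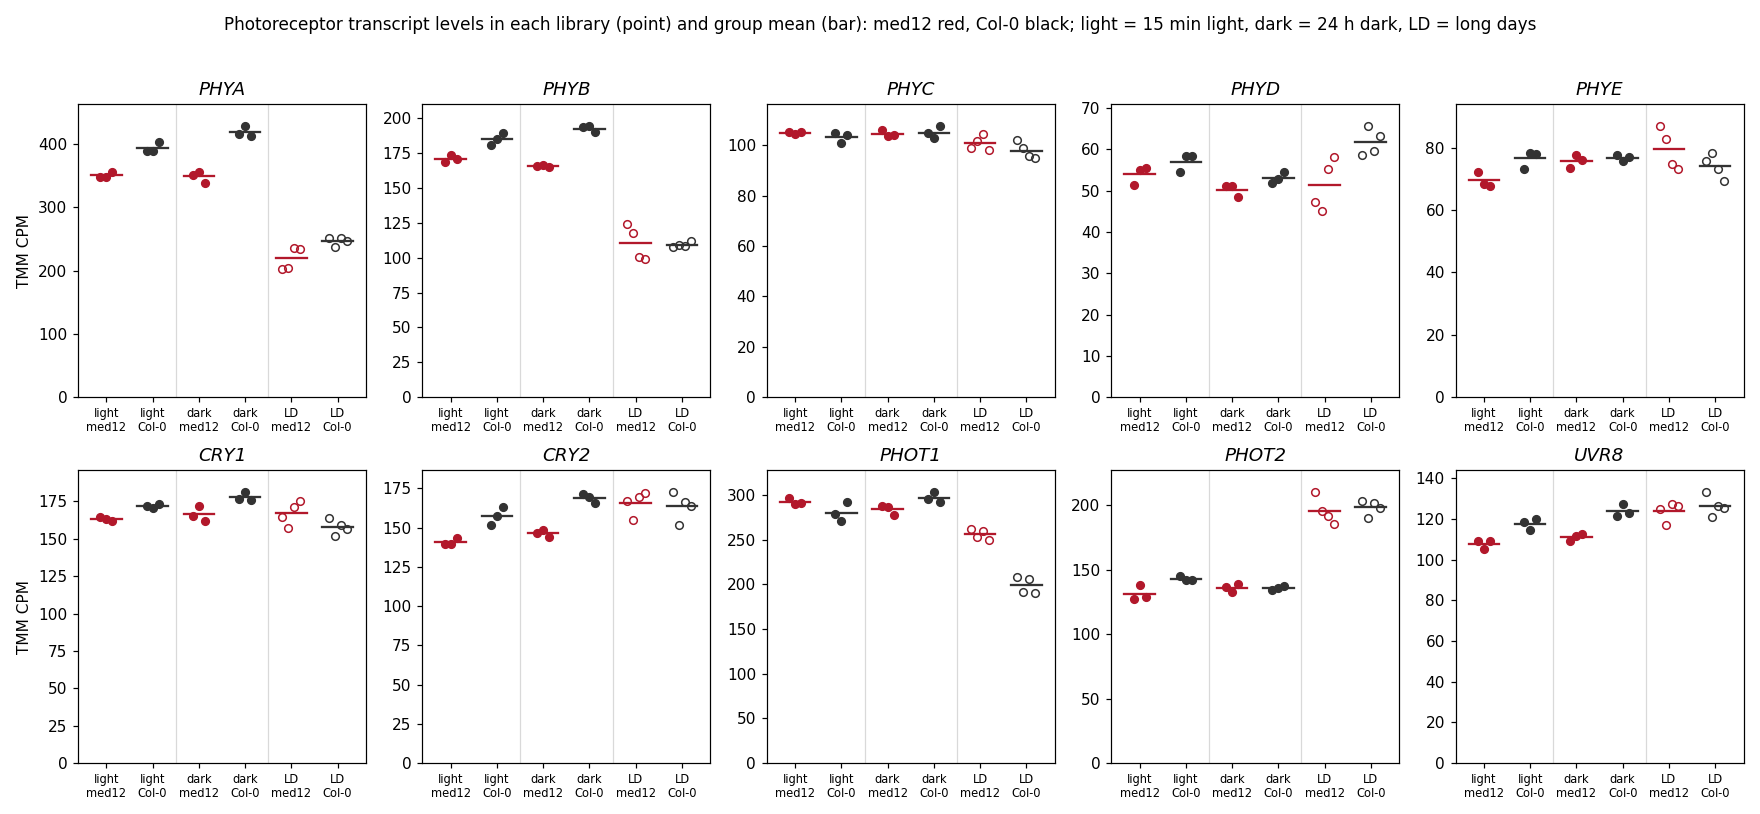
Level of each photoreceptor gene in TMM-scaled CPM (vertical axis, from 0) in every *med12* (red) and Col-0 (black) library of the light, dark and long-day (LD) groups, with the group mean as a bar. *PHYA* and *PHYB* are above their long-day levels in all dark and light libraries of both genotypes, *PHOT2* is below, and *PHOT1* in long days is the member whose *med12* libraries stand farthest above Col-0.

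After 24 h of darkness, just before the light was given, 6 of the 10 receptor transcripts were lower in *med12* than in Col-0 and none was higher, by at most 0.27 on the log2 scale. *PHYA*, *PHYB*, *CRY1*, *CRY2*, *PHOT1* and *UVR8* were called (edgeR quasi-likelihood test, adjusted p under 0.05 over 21202 features). Across all features 43.0% were called in this comparison and 22.8% were called lower. No member passed the study's added limit of 1.5-fold, which 13.4% of features passed. The median log2 fold change was -0.09 over the members and 0.00 over all features.

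*PHYA* had 351, 356 and 339 CPM in dark *med12*, against 416.5, 428.5 and 412 CPM in dark Col-0. No *med12* library reached the lowest Col-0 library, and the mutant stood at 83.1% of Col-0 (log2 fold change -0.27, SE 0.02, adjusted p = 3.7e-13). With counts corrected for duplicate removal the log2 fold change was -0.39. *PHYB*, the main receptor of red light in green seedlings, had 166, 166 and 165 CPM in *med12* and 194, 194.5 and 190.1 CPM in Col-0. Again the groups did not overlap, with 85.9% of the Col-0 level in *med12* (log2 fold change -0.22, SE 0.02, adjusted p = 1.6e-09). *CRY2*, the light-labile cryptochrome that promotes flowering, had 146, 148.5 and 144 CPM in *med12* and 171, 169.5 and 166 CPM in Col-0 (log2 fold change -0.21, SE 0.03, adjusted p = 8.8e-08).

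*UVR8* had 109, 112 and 112.5 CPM in dark *med12*, against 121.5, 127 and 123 CPM in Col-0 (log2 fold change -0.16, SE 0.03, adjusted p = 0.00073). *CRY1* had 165, 172 and 162 CPM in *med12* and 176, 181 and 176 CPM in Col-0 (log2 fold change -0.10, SE 0.03, adjusted p = 0.013). The *PHOT1* call was also lost after the correction for duplicate removal (adjusted p = 0.072). The *CRY1* and *PHOT1* groups came within a few CPM of each other, and both calls were lost without dark Col-0 replicate 2 or without dark *med12* replicate 3. *PHOT1*, the phototropin that works at low blue light, had 288, 287 and 278 CPM in *med12* and 296, 303.5 and 292 CPM in Col-0 (log2 fold change -0.07, SE 0.02, adjusted p = 0.035).

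The 4 members that were not called in the dark were *PHYC*, *PHYD*, *PHYE* and *PHOT2*. Their log2 fold changes were -0.01 (95% interval -0.07 to 0.05), -0.09 (-0.17 to 0.00), -0.02 (-0.09 to 0.05) and 0.00 (-0.06 to 0.06). The *PHYD* libraries did not overlap between the genotypes all the same. The share of all features without overlap was not computed for any comparison. *PHYC* and *PHYE* act with *PHYB* in red light, *PHYD* is its closest relative, and *PHOT2* works at strong blue light. Over all 10 members, *med12* held 83.1% to 99.9% of the Col-0 level. With each group mean as 1 sample, edgeR called none of the 10 and 3.29% of all features, and 3 members had an unadjusted p under 0.05. DESeq2 on the 3 libraries called 4 (*PHYA*, *PHYB*, *CRY2* and *UVR8*). With group means, *PHYA* had a log2 fold change of -0.26 and an adjusted p = 0.15 (edgeR).

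After 15 min of light the same comparison called 7 members, of which 6 were lower in *med12* (*PHYA*, *PHYB*, *PHYE*, *CRY2*, *PHOT2* and *UVR8*) and *PHOT1* was higher. Of all 21202 features 43.3% were called and 22.8% were lower. The member median was -0.11 and that of all features 0.00. *PHYA* had 348, 348 and 356 CPM in lit *med12*, against 389, 389.5 and 403 CPM in lit Col-0, without overlap (log2 fold change -0.16, SE 0.02, adjusted p = 2.3e-07, or -0.28 after the correction for duplicate removal). *CRY2* had 139.5, 139.7 and 143 CPM in *med12* and 152, 157 and 163 CPM in Col-0 (log2 fold change -0.15, SE 0.03, adjusted p = 0.00024). These were the only members that DESeq2 also called here.

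*PHYB* had 168, 173.5 and 171 CPM in lit *med12* and 181, 185 and 189.7 CPM in lit Col-0 (log2 fold change -0.11, SE 0.03, adjusted p = 0.0053). *PHOT2* had 127, 138 and 128.5 CPM in *med12* and 145, 142 and 142 CPM in Col-0 (log2 fold change -0.12, SE 0.03, adjusted p = 0.0075). *UVR8* had 109, 105 and 109 CPM in *med12* and 118.5, 114.5 and 120.2 CPM in Col-0 (log2 fold change -0.12, SE 0.03, adjusted p = 0.016). The *med12* libraries lay below the Col-0 libraries for all 3 of these genes. *PHYE* had 72.2, 68.5 and 67.9 CPM in *med12* and 73.3, 78.3 and 78.2 CPM in Col-0, again without overlap (log2 fold change -0.14, SE 0.04, adjusted p = 0.03). *PHOT1* overlapped, with 296, 291 and 292 CPM in *med12* and 278, 271 and 292 CPM in Col-0 (log2 fold change 0.07, SE 0.03, adjusted p = 0.028).

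*PHYC*, *PHYD* and *CRY1* were not called in light, with log2 fold changes of 0.03 (95% interval -0.03 to 0.09), -0.07 (-0.16 to 0.01) and -0.07 (-0.12 to -0.02). The *CRY1* interval excludes 0 although its unadjusted p was 0.051 (edgeR), and its libraries did not overlap between the genotypes. Lit *med12* held 89.4% to 105% of the Col-0 level over the 10 members. Leaving out any 1 of the 6 libraries left 5 or 6 members called. *PHYE*, *PHOT1*, *PHOT2* and *UVR8* were the members lost. With each group mean as 1 sample edgeR called none, where 3.57% of all features were called, and 0 had an unadjusted p under 0.05.

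**Figure D2:**
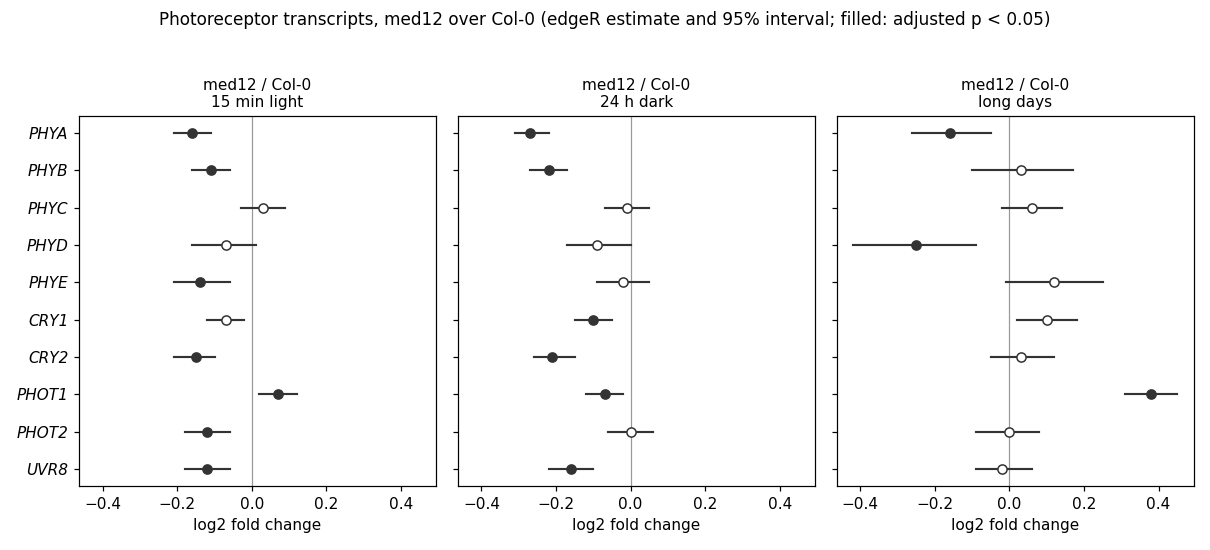
Log2 fold change of each photoreceptor gene, *med12* over Col-0 (horizontal axis), with its 95% interval from edgeR, after 15 min of light, after 24 h of darkness and in long days. Points are filled where the adjusted p is under 0.05. Intervals of the light and dark panels are too narrow, because replicates there differ by little more than counting noise. The dark and light estimates lie between -0.27 and 0.07, and in long days *PHOT1* has the highest estimate, 0.38.

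The 15 min of light itself moved the receptor transcripts little. In *med12*, edgeR called no member between light and darkness, where 6.75% of all features were called. At an unadjusted p under 0.05 there was 1 member, *PHYE* (log2 fold change -0.12, 95% interval -0.19 to -0.05), and DESeq2 also called none. With each group mean as 1 sample edgeR called none (0 at an unadjusted p under 0.05), where only 0.0752% of all features were called. The log2 changes ran between -0.12 and 0.11, with intervals inside -0.19 to 0.19, which are too narrow as said above. *PHYA* had 348, 348 and 356 CPM in lit *med12*, against 351, 356 and 339 CPM in dark *med12*, and these overlapped. The lit and dark libraries of *PHYB*, *PHYD*, *PHYE*, *CRY2* and *PHOT1* did not overlap in *med12*, though none of these was called.

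In Col-0, 3 members fell in light relative to darkness and none rose, while 12.7% of all features were called and 6.45% were called lower. The 3 were *PHYA* (log2 fold change -0.10, SE 0.02, adjusted p = 0.0023), *CRY2* (log2 fold change -0.11, SE 0.03, adjusted p = 0.024) and *PHOT1* (log2 fold change -0.09, SE 0.03, adjusted p = 0.011). *PHYA* had 389, 389.5 and 403 CPM in lit Col-0, against 416.5, 428.5 and 412 CPM in dark Col-0. The lit and dark libraries of *PHYA* and *CRY2* did not overlap, and those of *PHOT1* overlapped at 292 CPM, the highest lit and the lowest dark library. *PHYB*, *CRY1*, *PHOT2* and *UVR8* did not overlap either, though they were not called. Over all 10 members the log2 change in Col-0 ran between -0.11 and 0.10, with 95% intervals inside -0.16 to 0.18, which are again too narrow. *CRY2* and *PHOT1* both lost their call without dark Col-0 replicate 2, lit replicate 1 or lit replicate 2. DESeq2 called none of the 3, with 3 members at an unadjusted p under 0.05, and neither did edgeR with each group mean as 1 sample (0 at an unadjusted p under 0.05). That fit with group means called only 0.155% of all features.

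The response to light was tested for a difference between the genotypes by the interaction term. *PHOT1* alone was called, with a response 0.13 higher on the log2 scale in *med12* (SE 0.04, adjusted p = 0.048), where 1.04% of all features were called. *PHOT1* had 296, 291 and 292 CPM in lit and 288, 287 and 278 CPM in dark *med12*, against 278, 271 and 292 CPM in lit and 296, 303.5 and 292 CPM in dark Col-0. The *med12* libraries were thus slightly higher in light and the Col-0 libraries slightly lower. The call was lost when any 1 of 10 of the 12 libraries was left out, in DESeq2, with other scaling, without the low-count filter, with a replicate block and with each group mean as 1 sample. At an unadjusted p under 0.05 there were 4 members by edgeR, 2 by DESeq2 and 0 with each group mean as 1 sample. With group means 0 of all 21286 features were called. For the other 9 members the interaction lay between -0.12 and 0.11, and over all 10 the 95% intervals lay inside -0.21 to 0.21. These intervals are too narrow for the reason given above.

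Some light-response genes moved more than any receptor in the same libraries. From these data the paper had reported *HY5*, *HYH* and *CGA1* as induced by light in Col-0, and *HY5* and *HYH* as little responsive in *med12*. Their response was thus known before they were looked up here. *CGA1*, a GATA factor of chloroplast development, had 38.7, 38.0 and 40.9 CPM in lit *med12*, against 27.1, 31.1 and 28.5 CPM in dark *med12* (log2 fold change 0.44, SE 0.06, adjusted p = 1.4e-06). It had 77.5, 73.7 and 80.1 CPM in lit Col-0, against 24.4, 24.2 and 24.6 CPM in dark Col-0 (log2 fold change 1.65, SE 0.05, adjusted p = 3.4e-28). The rise in *med12* was smaller (interaction -1.21, adjusted p = 2.3e-15). *HY5*, the bZIP factor that drives photomorphogenesis, had 16.1, 18.7 and 16.7 CPM in lit *med12*, against 13.4, 13.3 and 13.7 CPM in dark *med12* (log2 fold change 0.35, SE 0.09, adjusted p = 0.04). It had 30.5, 31.4 and 32.4 CPM in lit Col-0, against 14.5, 14.8 and 16.3 CPM in dark Col-0 (log2 fold change 1.04, SE 0.08, adjusted p = 6.2e-15; interaction -0.69, adjusted p = 0.0026). Its relative *HYH* had an interaction of -0.67 (adjusted p = 0.058), which was not called.

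Between light and darkness, 6.75% of all features were called in *med12* and 12.7% in Col-0, in either direction. Of the 7 light-response genes tested (*HY5*, *HYH*, *CGA1*, *SIG5*, *ELIP2*, *RUP1* and *RUP2*), 2 rose and 1 (*RUP1*) fell with light in *med12*, while 5 rose and 1 (*RUP1*) fell in Col-0. Of these, *SIG5* (-0.14 in *med12* and 0.26 in Col-0) and *RUP2* (0.01 in *med12* and 0.47 in Col-0) had log2 changes in *med12* close to the range of the receptors. With each group mean as 1 sample, none of the list was called between light and darkness in *med12*, and none had an unadjusted p under 0.05. That fit called only 0.0752% of all features there. In Col-0 only *CGA1* and *HY5* were then called (adjusted p = 0.018 and 0.042), and both were still lower in lit *med12* than in lit Col-0 (adjusted p = 0.039 and 0.018). Of all features 0.155% and 3.57% were called in these comparisons. The interactions of *CGA1* and *HY5* were then not called, but 0 of all 21286 features were called for it, so that fit says nothing on these genes. The receptor differences between *med12* and Col-0 (up to 0.27 on the log2 scale in the dark) and the smaller light response of *CGA1* and *HY5* (differences of 1.21 and 0.69) were measured in the same libraries, and whether one contributes to the other was not tested.

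**Figure D3:**
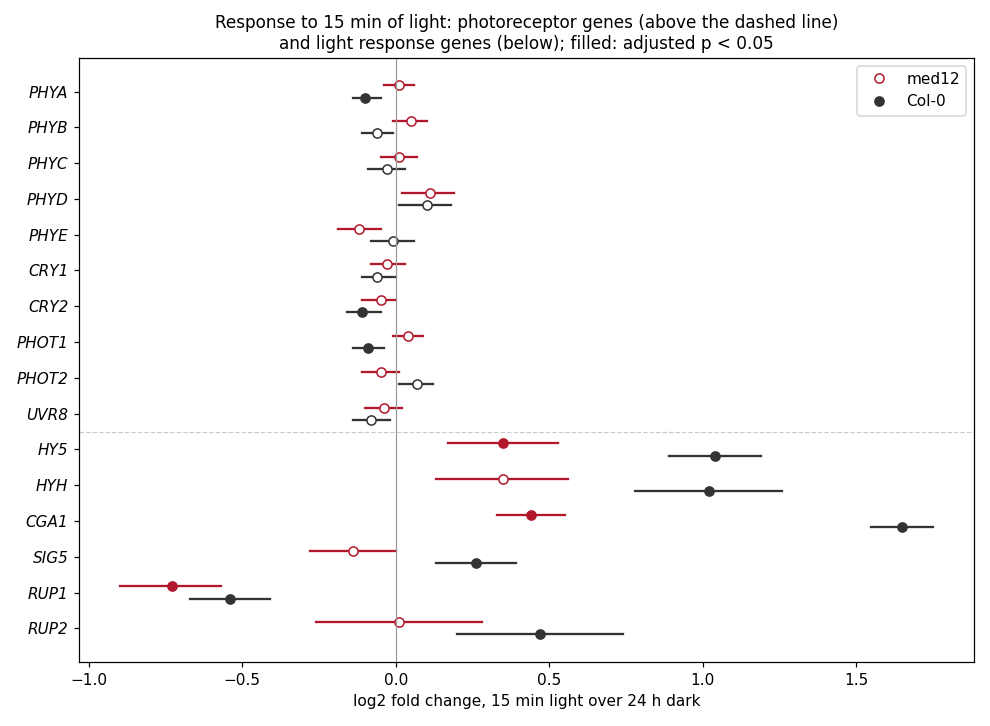
Log2 fold change of 15 min of light over 24 h of darkness (horizontal axis) with its 95% interval in *med12* (red) and Col-0 (black), for the 10 photoreceptor genes above the dashed line and for light-response genes below it. Filled points had an adjusted p under 0.05. The intervals are too narrow, because replicates differ by little more than counting noise. All 10 photoreceptor genes stay between -0.12 and 0.11 in both genotypes, while *CGA1* reaches 0.44 in *med12* and 1.65 in Col-0.

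Between 24 h of darkness and long days, receptor transcripts differed by up to 0.66 on the log2 scale in *med12* and by up to 0.82 in Col-0. In *med12*, 6 members were called between darkness and long days, 3 in each direction, where 53.9% of all features were called. *PHYA* alone passed 1.5-fold, as did 19.1% of features. *PHYA* had 351, 356 and 339 CPM in dark *med12*, against 203, 204.5, 235.5 and 234 CPM in long-day *med12* (log2 fold change 0.66, SE 0.05, adjusted p = 2.8e-09; 0.94 when corrected for duplicate removal). *PHYB* had 166, 166 and 165 CPM in the dark, against 124, 118, 101 and 99.4 CPM in long days (log2 fold change 0.57, SE 0.05, adjusted p = 9.3e-08). *PHOT2* had 137, 132 and 139 CPM in the dark, against 210.3, 196, 192 and 186 CPM in long days (log2 fold change -0.53, SE 0.04, adjusted p = 3.4e-09; -0.63 when corrected). No library of these 3 genes overlapped between the conditions. On the log2 scale *PHOT1* rose by 0.14 (adjusted p = 0.0012; 0.27 when corrected), and *CRY2* fell by 0.19 (adjusted p = 0.00075) and *UVR8* by 0.16 (adjusted p = 0.00088). With each dark group mean as 1 sample edgeR called 6 members here too, where 30.9% of all features were called.

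In Col-0, 7 members were called (5 higher and 2 lower in the dark) where 56.2% of all features were called, and *PHYA* and *PHYB* passed 1.5-fold, as did 20.5% of features. *PHYB* had 194, 194.5 and 190.1 CPM in dark Col-0, against 108, 109.5, 108 and 112 CPM in long-day Col-0 (log2 fold change 0.82, SE 0.05, adjusted p = 9.5e-10). *PHYA* had 416.5, 428.5 and 412 CPM in the dark, against 251, 238, 251 and 247 CPM in long days (log2 fold change 0.77, SE 0.04, adjusted p = 2.9e-10). Both genes were higher in every dark library, and after the correction for duplicate removal their log2 fold changes were 0.93 (*PHYB*) and 1.14 (*PHYA*).

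*PHOT1* had 296, 303.5 and 292 CPM in dark Col-0, against 209, 192, 206 and 191 CPM in long-day Col-0 (log2 fold change 0.58, SE 0.03, adjusted p = 2.2e-10; 0.82 when corrected). *PHOT2* went the other way, with 135, 136 and 138 CPM in the dark, against 203, 190.4, 202 and 198 CPM in long days (log2 fold change -0.54, SE 0.04, adjusted p = 3.4e-09; -0.64 when corrected). The phototropins thus moved in opposite directions, and neither overlapped between the conditions. On the log2 scale *CRY1* rose by 0.18 (adjusted p = 0.00061) and *PHYC* by 0.11 (adjusted p = 0.023), while *PHYD* fell by 0.21 (adjusted p = 0.015). *PHYC* was not called without long-day replicate 3 or 4 or dark replicate 3, nor *PHYD* without long-day replicate 2 or dark replicate 1 or 2. With each dark group mean as 1 sample both were lost and 5 members were called, where 32.5% of all features were called. *PHYE*, *CRY2* and *UVR8* were not called, with log2 fold changes of 0.06, 0.05 and -0.02.

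The dark response differed between the genotypes for 4 members, all of them smaller or more negative in *med12*, where 23.5% of all features were called and 13.1% were called in that direction. *PHOT1* had the largest difference (interaction -0.44, SE 0.05, adjusted p = 2.7e-06; -0.56 when corrected), followed by *PHYB* (interaction -0.25, SE 0.07, adjusted p = 0.023), *CRY2* (interaction -0.24, SE 0.06, adjusted p = 0.0049) and *CRY1* (interaction -0.19, SE 0.05, adjusted p = 0.013). *PHOT1* was called in every alternative run. The *PHYB* call was lost without dark *med12* replicate 1 or 3, dark Col-0 replicate 2, or long-day Col-0 replicate 1 or 3. With each dark group mean as 1 sample *PHOT1* was the 1 member called, where 3.49% of all features were called.

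Per the study's methods all plants were grown and harvested together, but nothing says which libraries were prepared or sequenced together, and a difference in preparation between dark and long-day libraries cannot be told apart from the condition. The clock genes, looked up after the member values were seen, also differed between dark and long days. *CCA1*, a morning clock gene, had 118.5, 124 and 123 CPM in dark Col-0, against 0.344, 0.947, 0.325 and 0.641 CPM in long-day Col-0. Its partner *LHY* had 110.1, 109.8 and 107.5 CPM in dark Col-0 and 1.72, 3.47, 1.46 and 1.44 CPM in long-day Col-0. The labels give no hour of collection, and the part of the time of day in the receptor differences was not tested.

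In long days, 3 members were called between *med12* and Col-0, where 38.6% of 20788 features were called. *PHOT1* was higher in *med12*, and *PHYA* and *PHYD* were lower. *PHOT1* had 263, 253.5, 259.5 and 250 CPM in *med12*, against 209, 192, 206 and 191 CPM in Col-0. Every *med12* library was above every Col-0 library, at 130% of its level (log2 fold change 0.38, SE 0.03, adjusted p = 1.1e-06; 0.50 when corrected for duplicate removal), and the call held in all 14 alternatives run. *PHYA* had 203, 204.5, 235.5 and 234 CPM in *med12* and 251, 238, 251 and 247 CPM in Col-0 (log2 fold change -0.16, SE 0.05, adjusted p = 0.024). *PHYD* had 47.2, 45.1, 55.3 and 58.1 CPM in *med12* and 58.7, 65.6, 59.7 and 63.3 CPM in Col-0 (log2 fold change -0.25, SE 0.08, adjusted p = 0.016). Replicates 1 and 2 of *med12* were the low ones for both genes. Without *med12* replicate 1 or replicate 2 neither gene was called, *PHYA* lost its call without Col-0 replicate 1 or 3, and *PHYD* without Col-0 replicate 2.

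*PHYB*, lower in *med12* in both dark-kept groups, had 124, 118, 101 and 99.4 CPM in long-day *med12* and 108, 109.5, 108 and 112 CPM in Col-0. Replicates 1 and 2 lay above all Col-0 libraries and replicates 3 and 4 below them, and the log2 fold change was 0.03 (95% interval -0.10 to 0.17). *CRY1* was at 0.10 (0.02 to 0.18, adjusted p = 0.057), and *PHYC*, *PHYE*, *CRY2*, *PHOT2* and *UVR8* lay between -0.02 and 0.12. In long days *med12* held 83.9% to 130% of the Col-0 level.

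In *med13*, compared with the same Col-0 libraries, 5 members were called, where 39.5% of features were called. *PHOT1* had 240.0, 241, 238 and 242 CPM in *med13*, against 209, 192, 206 and 191 CPM in Col-0 (log2 fold change 0.29, SE 0.03, adjusted p = 1.3e-05; 0.39 when corrected for duplicate removal). *PHYD* had 45.9, 47.7, 52.6 and 52.3 CPM in *med13* and 58.7, 65.6, 59.7 and 63.3 CPM in Col-0 (log2 fold change -0.30, SE 0.08, adjusted p = 0.0063). *PHYC* was higher in *med13*, with 112, 108, 105 and 105 CPM against 102, 98.8, 95.6 and 95.04 CPM in Col-0 (log2 fold change 0.15, SE 0.04, adjusted p = 0.0037). None of these 3 genes overlapped between the genotypes, and each was called in all 14 alternatives.

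*PHYB* had 86.7, 95.7, 96.9 and 94.3 CPM in *med13* and 108, 109.5, 108 and 112 CPM in Col-0, without overlap (log2 fold change -0.21, SE 0.06, adjusted p = 0.018), but was not called without *med13* replicate 1. *PHOT2* had 182, 189, 177 and 170.3 CPM in *med13* and 203, 190.4, 202 and 198 CPM in Col-0 (log2 fold change -0.13, SE 0.04, adjusted p = 0.026), and was not called without Col-0 replicate 1, 3 or 4 or without *med13* replicate 4. *PHYA* was not called (0.04, 95% interval -0.06 to 0.15). The *med12* and *med13* comparisons share their Col-0 libraries, so their values stand side by side here and their likeness was not tested. The clock-associated gene *GI*, looked up after the member values were seen, had 166 to 214 CPM in *med12* and 117 to 153 CPM in *med13*, against 6.67 to 12.3 CPM in Col-0.

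In the *SDC:GFP* backgrounds, *morc1/med13* and *ddc* had the largest receptor changes of all genotype comparisons. In *morc1/med13*, 5 members were called against *morc1*, where 42.4% of 19201 features were called, and *PHYA* and *PHYB* passed 1.5-fold, as did 18.9% of features. *PHYA* had 290.1, 283, 344 and 385 CPM in *morc1/med13*, against 176, 185, 192 and 172 CPM in *morc1*, which is 1.8-fold higher (log2 fold change 0.85, SE 0.09, adjusted p = 9.1e-05; 0.95 when corrected). *PHYB* had 134, 138, 93.4 and 93.6 CPM in *morc1/med13*, against 177, 179, 170.4 and 161 CPM in *morc1* (log2 fold change -0.59, SE 0.12, adjusted p = 0.0035). The groups did not overlap for either gene, and *PHYA* was high and *PHYB* low in replicates 3 and 4 relative to replicates 1 and 2.

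*PHYE* had 72.7, 73.2, 59.1 and 70.9 CPM in *morc1/med13* and 98.3, 106, 92.6 and 92.9 CPM in *morc1* (log2 fold change -0.50, SE 0.08, adjusted p = 0.00071). *PHOT2* had 283, 286, 254.9 and 240.3 CPM in *morc1/med13* and 317, 352, 339 and 312.5 CPM in *morc1* (log2 fold change -0.31, SE 0.06, adjusted p = 0.0022). *PHOT1* had 377, 371, 395 and 417 CPM in *morc1/med13* and 329, 359.9, 363 and 336.5 CPM in *morc1* (log2 fold change 0.17, SE 0.05, adjusted p = 0.015). All 5 calls held without any 1 of the 8 libraries. In the same libraries *LHY* had 88.1, 79.0, 43.4 and 36.2 CPM in *morc1/med13*, against 19.97, 25.4, 14.8 and 20.1 CPM in *morc1*, and the seed storage genes summed to 102 to 913 CPM, against 15.1 to 109 CPM. The part of either in these changes was not tested.

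In *ddc/med13*, 4 members were called against *ddc*, 2 in each direction, where 32.8% of 18889 features were called. *PHOT2* had 257, 231, 230.1 and 228 CPM in *ddc/med13*, against 177.5, 153.5, 189 and 170.3 CPM in *ddc*, with every *ddc/med13* library above every *ddc* library (log2 fold change 0.47, SE 0.07, adjusted p = 0.00036). *PHYA* had 292, 277, 313 and 304 CPM in *ddc/med13*, against 381, 353, 374 and 343 CPM in *ddc*, all lower (log2 fold change -0.28, SE 0.06, adjusted p = 0.0041). The signs of *PHYA* and *PHOT2* were thus opposite to those in *morc1/med13* against *morc1*, a difference that was not tested. *CRY2* had 203, 182, 185 and 186 CPM in *ddc/med13* and 230.3, 214, 217 and 221 CPM in *ddc* (log2 fold change -0.21, SE 0.05, adjusted p = 0.011). *PHOT1* had 418, 359.8, 381.5 and 359 CPM in *ddc/med13* and 354, 339.5, 333 and 320.5 CPM in *ddc* (log2 fold change 0.18, SE 0.06, adjusted p = 0.035), a call lost without *ddc/med13* replicate 1 or 3 or without *ddc* replicate 3 or 4. *PHYB* had 106, 119.5, 82.0 and 82.9 CPM in *ddc/med13* and 131, 130.2, 116 and 104 CPM in *ddc*, with overlap, and was not called (log2 fold change -0.29, adjusted p = 0.087). It was called without *ddc/med13* replicate 2 or without *ddc* replicate 4. Seed storage genes summed to 4.63 to 298 CPM in *ddc/med13*, against 1.34 to 8.70 CPM in *ddc*. All 4 clock genes looked up were called in this comparison, *LHY* (3.23) and *CCA1* (1.35) higher and *TOC1* (-0.86) and *GI* (-0.50) lower. The part of either set in these changes was not tested.

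In *morc1/med12*, 2 members were called against *morc1*, both higher, where 11.5% of 20168 features were called. *PHYA* had 175, 178.5 and 197 CPM in *morc1/med12*, against 149, 145 and 164 CPM in *morc1* (log2 fold change 0.25, SE 0.06, adjusted p = 0.033). *PHOT1* had 264.5, 273 and 269 CPM in *morc1/med12*, against 251, 238 and 230.3 CPM in *morc1* (log2 fold change 0.15, SE 0.04, adjusted p = 0.034). Neither was called without *morc1/med12* replicate 3, *morc1/med12* replicate 2 or *morc1* replicate 6. *PHYA* was also lost without *morc1* replicate 5 and *PHOT1* without *morc1* replicate 7. *PHYA* was thus lower in *med12* against Col-0 in long days and higher in *morc1/med12* against *morc1*, which was not tested as a difference. Seed storage genes summed to 35.8 to 308 CPM in *morc1/med12*, against 5.94 to 44.8 CPM in *morc1*, and their part was not tested.

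Between the controls of these backgrounds, *ddc* differed from the *SDC:GFP* wild type in 6 members, where 56.6% of 19203 features were called, and 3 members passed 1.5-fold (*PHYA*, *PHYE* and *PHOT2*), as did 27.3% of features. *PHYA* had 381, 353, 374 and 343 CPM in *ddc*, against 186, 203, 177 and 183 CPM in the *SDC:GFP* wild type (log2 fold change 0.96, SE 0.05, adjusted p = 7.5e-09; 1.06 when corrected for duplicate removal). *PHOT2* had 177.5, 153.5, 189 and 170.3 CPM in *ddc*, against 336, 321, 343 and 328 CPM in the wild type (log2 fold change -0.94, SE 0.05, adjusted p = 1.3e-08; -1.09 when corrected). *PHYE* had 59.4, 62.8, 69.7 and 61.7 CPM in *ddc*, against 98.9, 96.9, 104 and 98.5 CPM in the wild type (log2 fold change -0.65, SE 0.06, adjusted p = 1.1e-06). No library of these 3 genes overlapped between *ddc* and the wild type. *PHYB* (-0.42, adjusted p = 0.00013) and *PHYD* (-0.28, adjusted p = 0.027) were lower and *CRY2* (0.32, adjusted p = 5.1e-05) was higher in *ddc*. The *PHYD* call was lost without *ddc* replicate 1 or 4 or without wild-type replicate 1, 2 or 3. In the same libraries *LHY* had 1.17, 0.932, 0.697 and 0.335 CPM in *ddc*, against 30.0, 28.1, 26.2 and 26.0 CPM in the wild type, and the evening clock gene *TOC1* had 224 to 288 CPM, against 73.8 to 80.0 CPM. The part of the clock genes was not tested.

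In *morc1*, edgeR called no member against the *SDC:GFP* wild type, where 11.7% of 19273 features were called, 1 member (*PHYB*) had an unadjusted p under 0.05, and DESeq2 called none. The largest estimate in size was -0.10, for *PHYD* (95% interval -0.24 to 0.05).

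**Figure D4:**
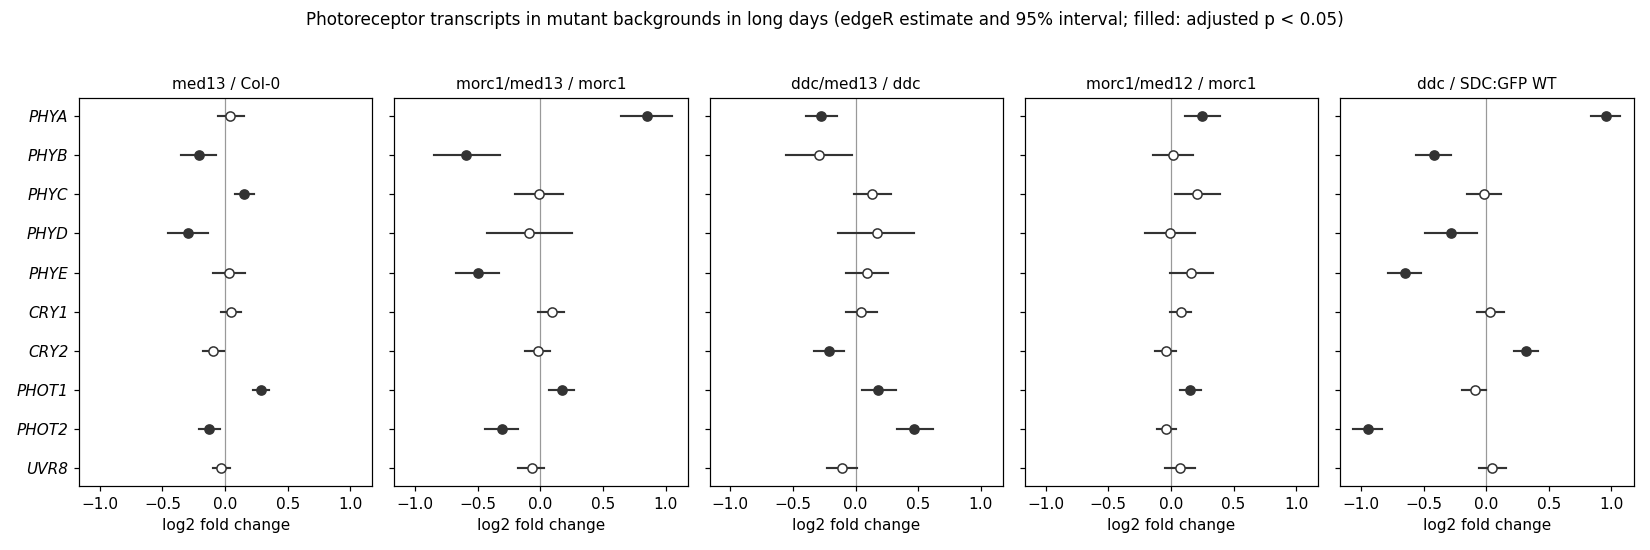
Log2 fold change of each photoreceptor gene (horizontal axis) with its 95% interval from edgeR in *med13* over Col-0, *morc1/med13* over *morc1*, *ddc/med13* over *ddc*, *morc1/med12* over *morc1*, and *ddc* over the *SDC:GFP* wild type, all in long days. Filled points had an adjusted p under 0.05. *PHYA* is at 0.85 in *morc1/med13* and at -0.28 in *ddc/med13*, and *PHOT2* is at -0.31 and 0.47 in these.

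**Figure D5:**
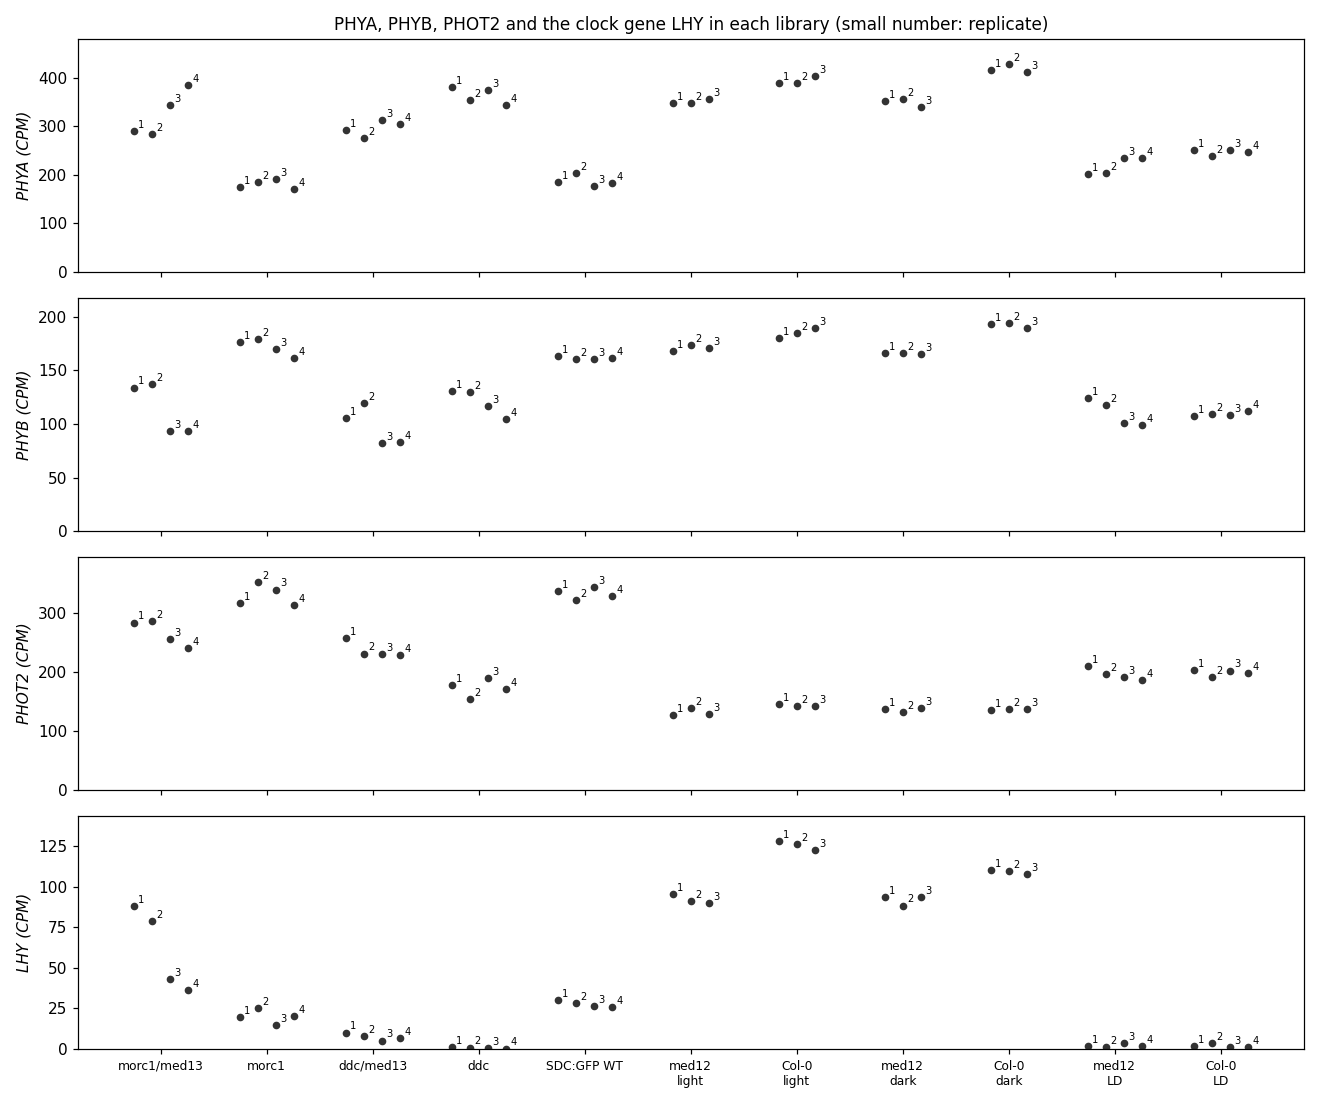
Levels of *PHYA*, *PHYB*, *PHOT2* and the clock gene *LHY* in TMM-scaled CPM (vertical axes, from 0) in each library of 11 of the 14 groups, with the replicate number beside each point. *PHYA* is between 343 and 381 CPM in *ddc* and between 177 and 203 CPM in the *SDC:GFP* wild type, and *LHY* is at or below 3.52 CPM in long-day *med12* and Col-0 but above 88 CPM in all dark and light libraries.

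Genes that work next to the receptors were described from lists of known partners. Those given with their values were mostly the ones that changed most in their list, picked after the values were seen. Their counts are to be read against all features, of which 20.2% were called higher and 22.8% lower in dark *med12*, and 38.6% were called in long-day *med12*, with 20.2% higher. As for the members, the p-values of the dark comparisons reflect little beyond counting noise, and with each group mean as 1 sample 3.29% of features were called in the dark and 3.57% in light. Of 4 further flavoproteins of the photoreceptor families (*ZTL*, *FKF1*, *LKP2* and *CRY3*), 3 were lower in dark *med12* and none was higher (0 called with group means, 2 at an unadjusted p under 0.05), with *FKF1*, which times flowering with day length, at 14.4, 12.3 and 12.9 CPM in *med12* and 22.4, 22.9 and 23.2 CPM in Col-0 (log2 fold change -0.79, SE 0.08, adjusted p = 1.1e-10). In long days *FKF1* was higher in *med12* (log2 fold change 0.76, SE 0.07, adjusted p = 4.2e-06). Of 7 phototropin partners tested, 4 were lower and 1 was higher in dark *med12*, and *BLUS1* and *RPT2*, both lower, were called with group means. *PKS4*, a phototropin substrate, had 21.5, 22.1 and 21.9 CPM in *med12* and 39.7, 42.7 and 42.2 CPM in Col-0 (log2 fold change -0.93, SE 0.06, adjusted p = 9.0e-17). *BLUS1*, the phototropin-activated kinase of guard cells, had 13.0, 15.0 and 15.4 CPM in *med12* and 30.5, 31.0 and 30.6 CPM in Col-0 (log2 fold change -1.09, SE 0.08, adjusted p = 7.6e-15). Both were lower in every *med12* library.

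Of 4 chromophore synthesis genes tested, 2 were higher in dark *med12* and none was lower, with 0 called and 0 at an unadjusted p under 0.05 with group means. *HY2*, which makes the phytochrome pigment, had 32.6, 32.3 and 30.7 CPM in *med12* and 28.4, 24.5 and 24.6 CPM in Col-0 (log2 fold change 0.30, SE 0.06, adjusted p = 0.0015). Of 5 genes of phytochrome nuclear import and signalling, 1 was higher and 2 were lower in the dark, and *HMR* alone was called with group means. *HMR*, a phytochrome signalling component, had 84.2, 84.2 and 84.4 CPM in *med12* and 54.8, 55.3 and 56.0 CPM in Col-0 (log2 fold change 0.60, SE 0.03, adjusted p = 2.8e-19). *FHY1* and *FHL*, which carry PHYA into the nucleus, were at -0.20 (adjusted p = 0.021) and -0.24 (adjusted p = 0.00071).

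Of the 5 phytochrome-interacting factors tested, 2 rose (*PIF1* and *PIF7*) and 2 fell (*PIF3* and *PIF5*) in dark *med12* relative to Col-0, and *PIF1* alone was called with group means. In long days 4 of them were higher in *med12* and none was lower. *PIF5*, a growth-promoting factor degraded after phytochrome activation, had 111, 112, 115 and 117.5 CPM in long-day *med12* and 40.1, 41.6, 34.5 and 49.5 CPM in Col-0 (log2 fold change 1.47, SE 0.07, adjusted p = 1.5e-08). *PIF7* had 52.5, 46.1, 50.0 and 43.3 CPM in *med12* and 16.2, 19.7, 20.6 and 19.6 CPM in Col-0 (log2 fold change 1.35, SE 0.08, adjusted p = 1.1e-07). Of the 6 COP1/SPA and DET1 repressors, 2 were higher and none lower in dark *med12*, 3 were higher and 1 lower in lit *med12*, and 5 were higher and none lower in long-day *med12*. With group means 0 of the 6 were called in the dark (0 at an unadjusted p under 0.05) and 0 in light (1 at an unadjusted p under 0.05). The *UVR8* inhibitor *RUP1* was lower in *med12* in the dark (-0.60, adjusted p = 8.8e-11), in light (-0.80, adjusted p = 1.9e-11) and in long days (-0.58, adjusted p = 0.016), and with group means it was called neither in the dark (adjusted p = 0.39) nor in light (adjusted p = 0.28).

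Across all 14 groups, group means of *PHYA* varied most among the members, 2.74-fold (3.85-fold when corrected for duplicate removal), between 153 CPM in the *morc1* libraries made with *morc1/med12* and 419 CPM in dark Col-0. *PHOT2* varied 2.53-fold (131 to 332 CPM; 2.8-fold when corrected), *PHYB* 2.06-fold and *PHOT1* 1.96-fold. *PHYD* (1.78-fold), *PHYE* and *CRY2* (1.57-fold each) and *CRY1* (1.5-fold) varied less. *UVR8* (1.4-fold) and *PHYC* (1.38-fold, 77.8 to 107 CPM) were the steadiest. Nothing says which groups were sequenced together, so these ranges may hold differences between library sets as well as between genotypes and conditions. The 2 sets of *morc1* libraries share genotype, age and day length but had unlike means. *PHYB* averaged 172 CPM in the set made with *morc1/med13* and 101 CPM in that made with *morc1/med12*. In the same order *PHOT2* averaged 330 and 230 CPM, *PHOT1* 347 and 240 CPM, *PHYA* 181 and 153 CPM, and *CRY2* 186 and 176 CPM. These differences were not tested.

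Among 16679 features above a mean of 10 CPM, the gene most like each member over the 14 group means was found by Pearson's r of log2 CPM, as a description only. It was *CID12* for *PHYA* (r = 0.974), *ABCG37* for *PHYB* (0.962), *SHM6* for *PHYC* (0.957), *PTR6* for *PHYD* (0.95), *PIP1A* for *CRY1* (0.983), *CYSA* for *PHOT1* (0.978) and *ZFN1* for *PHOT2* (0.986). *PHYE*, *CRY2* and *UVR8* were most like genes without a symbol. Several of the 14 groups share a genotype, a condition or a transgene, so the means are not independent.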

How the data were processed

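Raw counts per gene and transposable element were deposited by the authors, 1 file per library. Per the labels and the paper's methods, stranded 50-base single-end mRNA reads were trimmed with Trim Galore, aligned to TAIR10 with STAR, cleared of PCR duplicates with Picard and counted with HTSeq 0.6.1. Of the 50 files, 44 carried lines for reads assigned to no gene (3.03% to 5.81%), which were left out of totals and tests. Libraries held 2767761 to 6786822 counts, which limits the precision of low genes.

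Counts were tested in R 4.3.3 with edgeR 4.0.16 (filterByExpr, TMM, quasi-likelihood, 1 fit per experiment, Benjamini-Hochberg over all features that passed). All 10 members passed the filter in every fit. A gene was called at an adjusted p under 0.05, and the study's added limit of 1.5-fold is given beside it. CPM values are TMM-scaled. Levels per kilobase used the median transcript length of RefSeq TAIR10.1. Gene names and the 250-base windows came from RefSeq TAIR10.1. *PCH1*, *PCHL*, *NCH1* and *PIF8* were left out of the partner lists because the reference did not pair these names with their IDs. The genes named are the 10 members, the lists of partner, light-response and tissue marker genes, *MED12* and *MED13* as a check of the genotypes, and the gene most like each member in pattern. The rule picked no gene by its change, but the clock genes were added later. Within the partner lists, the genes given with values were mostly those that changed most, picked after their values were seen.

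The members and the partner lists were chosen with earlier results of these data known. Alternatives were DESeq2 1.42.0, its size-factor scaling (RLE), no low-count filter, only the groups compared, a replicate block and leaving out each library. Chosen after seeing the data were a correction of counts for duplicate removal (from counts per base, capped at 0.95), the mean of each dark or light group as 1 sample, and the clock genes. The fit was tested on simulated data with known changes. The simulated counts had a spread above counting noise, which the dark and light groups hardly showed, so the simulation does not check the tests within that experiment.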

Additional observations from a re-analysis of the deposited data

Results flagged for a closer look

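Of 80 sets of 4 libraries examined (a member in a group), 4 had 1 library far from the other 3, where chance gives about 1 in 20. These were *PHYD* in *ddc/med13* replicate 2 (48.6 CPM), *PHYE* in *morc1/med13* replicate 3 (59.1 CPM), *CRY2* in *ddc/med13* replicate 1 (203 CPM) and *PHOT2* in *ddc/med13* replicate 1 (257 CPM). The *CRY2* and *PHOT2* calls between *ddc/med13* and *ddc* held without that library.

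The light response of *PHOT1* differed between *med12* and Col-0 by 0.13 on the log2 scale in the main test of the interaction, but was called in only 3 of 18 alternatives. The difference between darkness and long days differed between *med12* and Col-0 in the same kind of test for *PHYB* (-0.25), *CRY1* (-0.19), *CRY2* (-0.24) and *PHOT1* (-0.44). Of 20 alternatives, 14 called *PHYB*, 19 *CRY1*, 19 *CRY2* and 20 *PHOT1*.

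In other cases every library of 1 comparison moved one way and every library of another moved the opposite way, and the differences were not tested. *PHYA* was at -0.16 in *med12* against Col-0 in long days and at 0.25 in *morc1/med12* against *morc1*. *PHYA* was also at 0.85 in *morc1/med13* against *morc1* and at -0.28 in *ddc/med13* against *ddc*. *PHOT2* was at 0.47 in *ddc/med13* against *ddc*, but at -0.31 in *morc1/med13* against *morc1* and at -0.13 in *med13* against Col-0. No cause was tested for any of these.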

How the results depend on the processing

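No called member changed sign in any alternative. With the mean of each dark or light group as 1 sample, chosen after seeing the data, called members numbered 0 in the dark, 0 in light, 0 for light against dark in Col-0, 0 for the interaction with light and 1 for the interaction with darkness. Of all features 3.29%, 3.57%, 0.155%, 0% and 3.49% were called in these comparisons, in the same order. DESeq2 called 2 members in light, 0 for light against dark in Col-0, 0 for the interaction with light and 1 in *morc1/med12*. RLE scaling, no low-count filter and a replicate block each called 0 for the interaction with light. The correction for duplicate removal lost *PHOT1* in the dark and added *CRY1* for *med12* in long days and in light and *PHOT1* in *ddc*. Apart from these and leaving out single libraries, counts stayed within 1.5 times those reported, and the causes of the changes were not tested.

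Leaving out each library in turn gave 1 to 3 called members for *med12* in long days, 4 to 6 for *med13*, 4 to 6 in the dark, 5 to 6 in light, 1 to 3 for light against dark in Col-0, 0 to 0 for the same in *med12*, 0 to 1 for the interaction with light, 6 to 7 for dark against long days in Col-0, 6 to 6 for the same in *med12* and 3 to 5 for the interaction with darkness. It gave 0 to 2 in *morc1/med12*, 5 to 5 in *morc1/med13*, 3 to 5 in *ddc/med13*, 0 to 0 in *morc1* and 5 to 6 in *ddc*.

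Same-numbered libraries did not deviate together (correlations between -0.082 and 0.11 for long-day *med12* and Col-0, -0.057 and 0.15 for *med13* and Col-0, and -0.39 and 0.15 over all pairs of groups), and in no pair of groups were all of them over 0.1, so the numbers are not taken to pair them. A replicate block called 0 members for the interaction with light, 4 for *med12* in long days, 6 for dark against long days in Col-0, 7 for the same in *med12* and 5 in *ddc/med13*, and left the other counts as reported. For *morc1/med12* and its *morc1* libraries no replicate block could be fitted, because they share no numbers.

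In the order of levels in long-day Col-0, 2 of 10 places were kept when levels were not taken per length, and 5 with the length of all exons. The depth limits the light comparisons least for *PHYA* and *PHOT1* and most for *PHYD*, whose standard error was 0.04, itself smaller than its p-values allow.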
